A study of Mus musculus with 8 samples.

Results

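The interferon-inducible GTPases described here are 4 guanylate-binding proteins (Gbp2, Gbp3, Gbp5 and Gbp7) and 4 immunity-related GTPases (Irgm1, Irgm2, Igtp and Iigp1). They were chosen by name as a readout of interferon-gamma (IFN-γ) type signaling, by a rule that sets no threshold on their values but with earlier results of these data known, and all 8 were found among the 20308 gene symbols of the count data. RNA-seq was performed on cells pulled down with CD11b-conjugated beads from the right brain hemisphere of 4 control mice and 4 CSF1 OE mice, with 1 library per mouse. CSF1 OE mice carry a TRE/tTA transgene system that drives the secreted form of the growth factor CSF1 in a subset of GFAP+ cells, so that the cells sequenced are exposed to the factor and are not its intended source. All mice were C57Bl/6 X CD1 F1 animals aged p14 or p15, controls being labelled only as controls for the overexpression. CD1 is an outbred stock, so that the mice need not share their alleles, and the labels do not say which transgenes the controls carried. CD11b is found on microglia and on other myeloid cells.

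Interferons bind receptors that signal through JAK kinases to transcription factors in the nucleus. The response to IFN-γ runs mainly through the gamma-activated site (GAS) of promoters, whereas that to type I interferons runs mainly through the interferon-stimulated response element (ISRE), which a complex that includes IRF9 binds and which IRF1 can also bind. Guanylate-binding proteins and immunity-related GTPases are among the most strongly induced products of both pathways in mouse macrophages, where they assemble on the vacuoles of intracellular pathogens, and Irgm1, Irgm2 and Igtp (Irgm3) hold the other immunity-related GTPases inactive on the membranes of the cell itself.

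The stretch upstream of the start site is shown for the members because the 2 motifs divide them. RefSeq windows (GRCm38.p6) that reach from 250 bases before to 50 bases after a start site were matched by symbol and searched for 7 of the 8 members. Iigp1 was left out of this search, so that its motifs are not known here. The 250 bases before the start site are printed 5′ to 3′ in the direction of the gene. Capitals mark each match to the ISRE core (GAAA, 2 bases of any kind, GAAA) or to the GAS (TTC, 3 bases of any kind, GAA), sought on both strands, and TTTC, 2 bases and TTTC is the ISRE core on the opposite strand. The first 3 genes have an ISRE core and no GAS in the window. Gbp2 is at chr3:142620413-142620662 on the plus strand, Gbp3 at chr3:142559794-142560043 on the plus strand and Irgm1 at chr11:48871421-48871670 on the minus strand.
Gbp2: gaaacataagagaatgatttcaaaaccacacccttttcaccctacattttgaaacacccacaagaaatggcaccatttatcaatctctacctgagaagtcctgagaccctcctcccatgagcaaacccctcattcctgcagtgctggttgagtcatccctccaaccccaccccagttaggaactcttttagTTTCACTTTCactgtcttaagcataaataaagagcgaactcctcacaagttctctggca
Gbp3: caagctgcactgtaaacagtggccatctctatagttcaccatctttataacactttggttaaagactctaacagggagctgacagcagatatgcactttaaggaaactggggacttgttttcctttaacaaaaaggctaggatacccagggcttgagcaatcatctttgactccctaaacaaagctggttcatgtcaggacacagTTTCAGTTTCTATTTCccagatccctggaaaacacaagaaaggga
Irgm1: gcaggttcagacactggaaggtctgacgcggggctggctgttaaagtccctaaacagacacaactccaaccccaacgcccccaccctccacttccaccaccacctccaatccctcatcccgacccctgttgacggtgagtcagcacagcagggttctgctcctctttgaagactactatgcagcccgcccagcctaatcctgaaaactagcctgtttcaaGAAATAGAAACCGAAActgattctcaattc

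The other 4 members have both motifs. Gbp5 is at chr3:142496684-142496933 on the plus strand, Gbp7 at chr3:142530086-142530335 on the plus strand, Irgm2 at chr11:58214727-58214976 on the plus strand and Igtp at chr11:58199306-58199555 on the plus strand.
Gbp5: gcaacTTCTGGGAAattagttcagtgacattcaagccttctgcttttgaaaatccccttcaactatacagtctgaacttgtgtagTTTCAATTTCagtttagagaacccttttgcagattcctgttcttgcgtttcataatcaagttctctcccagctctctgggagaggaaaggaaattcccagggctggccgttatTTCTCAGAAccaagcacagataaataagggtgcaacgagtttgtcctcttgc
Gbp7: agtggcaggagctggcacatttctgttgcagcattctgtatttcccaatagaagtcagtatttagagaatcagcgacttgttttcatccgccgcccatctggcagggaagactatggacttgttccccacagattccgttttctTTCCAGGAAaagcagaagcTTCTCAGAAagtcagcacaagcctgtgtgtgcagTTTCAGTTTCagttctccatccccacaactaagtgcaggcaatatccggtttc
Irgm2: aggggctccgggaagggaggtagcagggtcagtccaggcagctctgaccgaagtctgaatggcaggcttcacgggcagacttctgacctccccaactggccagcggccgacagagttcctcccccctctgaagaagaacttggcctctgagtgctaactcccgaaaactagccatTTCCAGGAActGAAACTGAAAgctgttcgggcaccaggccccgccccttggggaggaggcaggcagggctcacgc
Igtp: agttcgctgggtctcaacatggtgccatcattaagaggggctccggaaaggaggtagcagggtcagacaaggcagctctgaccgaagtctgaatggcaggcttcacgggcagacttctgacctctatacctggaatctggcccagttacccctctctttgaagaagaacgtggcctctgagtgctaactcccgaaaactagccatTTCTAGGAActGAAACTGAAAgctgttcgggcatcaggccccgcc

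An ISRE core was found in 7 of 7 members, against 3.44% of all 32851 windows, and a GAS in 4 of 7, against 8.30%. Members were counted by gene, with a match in any window, and the background by window. Both motifs together were found in 4 members and in 0.454% of all windows. In Gbp3 and Irgm1, 2 overlapping ISRE cores made up the capital run. In Irgm2 and Igtp the GAS lay just upstream of the ISRE core with 2 bases between them. Gbp3 has a further RefSeq start site whose window held neither motif. A match is a run of letters and not a measured binding site, and its absence speaks only of this window.

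Gbp5, Gbp7, Gbp3 and Gbp2 lie in this order in 1 cluster on chromosome 3, at chr3:142493978-142522344, chr3:142530342-142550149, chr3:142560026-142573209 and chr3:142620602-142638008, all on the plus strand (GENCODE M21, GRCm38). Irgm1 lies at chr11:48861968-48871683 on the minus strand. Igtp (chr11:58199556-58207591) and Irgm2 (chr11:58199618-58222782) overlap on the same strand. The deposited expected counts came from RSEM, which shares out reads that match more than 1 gene, and the annotation used by the authors is not given in the sources used here. Of the 100-base stretches in the transcripts of a gene, 10.01% were shared with another gene for Gbp7, 5.16% for Igtp and 3.01% for Irgm2, and 0.694% or less for the other 5. The shared stretches of Gbp7 lay mostly in the pseudogene Gm43802 and those of Igtp and Irgm2 in each other. Values of Gbp7, Igtp and Irgm2 are therefore less certain than those of Gbp2, Irgm1 and Iigp1, which shared none.

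The libraries held between 12053280 and 15475488 counts, so that a floor of 3 counts corresponded to between 0.194 and 0.249 counts per 1000000 (CPM). The microglia markers (P2ry12, Tmem119, Cx3cr1 and 7 others) were all tested and summed to between 22183 and 38599 CPM in control mice and between 28583 and 39763 CPM in CSF1 OE mice. Control mouse 1934 stood apart, with the lowest level among controls of 10 of the 10 microglia markers and the highest of 7 of the 8 endothelial markers. CSF1 OE mouse 2019 had the highest level among CSF1 OE mice of 9 of the 10 microglia markers and the lowest of 7 of the 8 endothelial markers. Endothelial markers summed to between 711 and 1196 CPM in control and between 342 and 833 CPM in CSF1 OE mice, and border macrophage markers to between 1557 and 2477 CPM and between 1252 and 1871 CPM. Csf1 was at 139 to 364 CPM in control and 167 to 400 CPM in CSF1 OE mice, with ranges that overlapped.

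To examine whether the GTPases differed between CSF1 OE and control cells, all genes were compared with edgeR's quasi-likelihood test on the counts of the 8 mice, and a gene was called at a Benjamini-Hochberg adjusted p under 0.05 together with a fold change beyond the thresholds of the study (0.7 or the inverse of it). Gbp2 and Gbp3 had higher levels in each CSF1 OE mouse than in any control, by 1.63-fold and 1.53-fold. Iigp1 had the largest estimate, 2.11-fold, with ranges that overlapped. Irgm1 was 1.27-fold and Igtp 1.24-fold higher on average, and Gbp5, Gbp7 and Irgm2 differed by at most 1.06-fold. None of the 8 members was called (0 of 8), where 0.440% of the 13407 genes tested were called. At an unadjusted p under 0.05 the count was 4 of 8 members, all higher, against 10.1% of all genes tested in that direction. The groups did not overlap for 2 of 8 members, against 6.84% of all genes with CSF1 OE higher. The median log2 fold change of the members was 0.33, with 7 of 8 above 0, and that of all genes tested was -0.03, with 44.8% above 0. All 8 members passed the filter on low counts.

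Gbp2 is a guanylate-binding protein that assembles on pathogen vacuoles and recruits other family members. Its level in control mice was 14.1, 10.997, 12.3 and 10.9 CPM (mice 1827, 1872, 1874 and 1934, the order used throughout). In CSF1 OE mice it was 21.7, 14.3, 24.7 and 18.1 CPM (mice 1931, 1932, 1936 and 2019). All 4 CSF1 OE mice were above all 4 controls, but CSF1 OE mouse 1932 and control mouse 1827 were nearly equal. The means were 12.1 ± 1.49 and 19.7 ± 4.52 CPM (SD, n = 4 each), a log2 difference of 0.70 ± 0.18 (SE; 95% interval 0.29 to 1.12, edgeR adjusted p = 0.109).

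Gbp3, which lies in the same gene cluster, was at 25.7, 20.8, 23.8 and 20.9 CPM in control mice. It was at 33.5, 32.7, 42.0 and 31.2 CPM in CSF1 OE mice. All CSF1 OE mice were again above all controls, and the gap between the highest control and the lowest CSF1 OE mouse was wider than for Gbp2. The means were 22.8 ± 2.38 and 34.9 ± 4.84 CPM (SD, n = 4 each), a log2 difference of 0.61 ± 0.12 (SE; 95% interval 0.33 to 0.89), with an edgeR adjusted p of 0.0600, the lowest among the 8 members.

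Gbp5 is best known for a role in inflammasome activation. Its values were 17.7, 20.1, 18.4 and 12.9 CPM in control mice and 17.4, 14.9, 17.6 and 18.9 CPM in CSF1 OE mice. The CSF1 OE values lay inside the range of the controls, of which mouse 1934 was the lowest. The means of 17.3 ± 3.10 and 17.2 ± 1.65 CPM differed by -0.01 ± 0.15 on the log2 scale (SE; 95% interval -0.35 to 0.34, edgeR adjusted p = 0.984).

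Gbp7, the member with the most counts, was at 105, 106, 106 and 97.0 CPM in control mice and at 110, 103, 106 and 122 CPM in CSF1 OE mice. CSF1 OE mouse 2019 was the highest and the other mice covered a narrow range. The log2 difference was 0.09 ± 0.08 (SE; 95% interval -0.09 to 0.26, edgeR adjusted p = 0.603).

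Irgm1 regulates the other immunity-related GTPases and is also tied to autophagy and mitochondrial homeostasis. It was at 57.0, 48.8, 44.5 and 40.1 CPM in control mice. It was at 49.2, 62.8, 71.8 and 57.5 CPM in CSF1 OE mice. Of the CSF1 OE mice, 3 were above every control and mouse 1931 was not. The means were 47.6 ± 7.19 and 60.3 ± 9.49 CPM, a log2 difference of 0.34 ± 0.14 (SE; 95% interval 0.02 to 0.66, edgeR adjusted p = 0.271).

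Irgm2, a regulator of the same class, was at 31.6, 30.4, 33.2 and 19.3 CPM in control and at 25.4, 23.9, 27.9 and 44.5 CPM in CSF1 OE mice. A single mouse set the extremes in each group, control 1934 at the low end and CSF1 OE 2019 at the high end. The means of 28.6 ± 6.33 and 30.4 ± 9.54 CPM differed by 0.09 ± 0.23 on the log2 scale (SE; 95% interval -0.44 to 0.62, edgeR adjusted p = 0.868). The difference was -0.05 without control mouse 1934 and -0.15 without CSF1 OE mouse 2019, so that its sign rested on these mice.

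Igtp (Irgm3), the third regulator, was at 25.3, 22.2, 25.0 and 17.2 CPM in control and at 27.4, 21.7, 29.5 and 32.4 CPM in CSF1 OE mice. Of the CSF1 OE mice, 3 were above every control, and mouse 1932 lay within the control range. The means were 22.4 ± 3.76 and 27.8 ± 4.50 CPM, a log2 difference of 0.31 ± 0.16 (SE; 95% interval -0.06 to 0.67, edgeR adjusted p = 0.380). Mice 1934 and 2019 were again the extremes of their groups.

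Iigp1 (Irga6) is an effector that the regulators hold inactive and that coats parasite vacuoles. It was the scarcest member, with between 25 and 128 counts in a library. Its values were 2.89, 1.94, 3.25 and 1.48 CPM in control and 2.30, 5.73, 8.72 and 3.28 CPM in CSF1 OE mice. The CSF1 OE mice spread more widely, relative to their mean, than for any other member, from within the controls (mouse 1931) to well above them (mouse 1936). The means were 2.39 ± 0.82 and 5.01 ± 2.87 CPM, a log2 difference of 1.08 ± 0.44 (SE; 95% interval 0.08 to 2.07, edgeR adjusted p = 0.266).

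**Figure D1:**
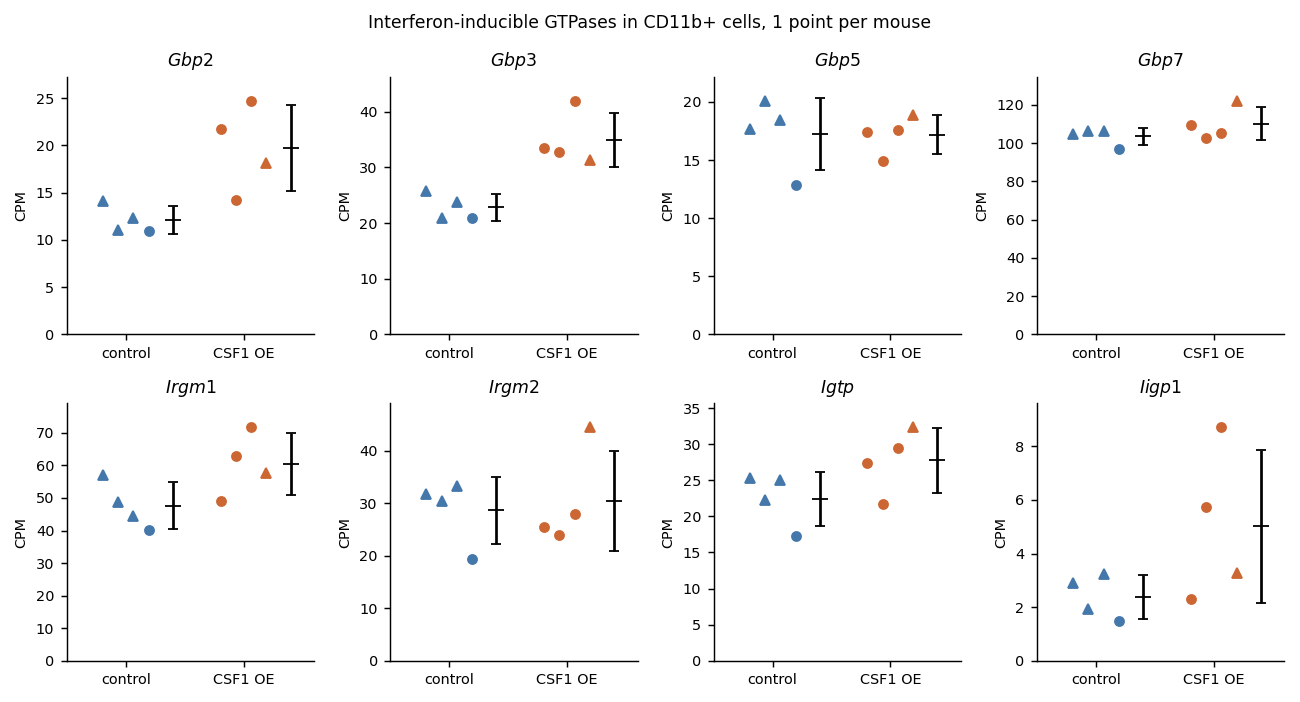
Level of each GTPase in CPM (vertical axes, linear from 0) in the 4 control and 4 CSF1 OE mice. Circles are mice numbered 1931 to 1936, triangles the other mice, and the bar beside each group is the mean ± SD (n = 4). The groups are separate for Gbp2 and Gbp3 and overlap for the other 6 genes.

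**Figure D2:**
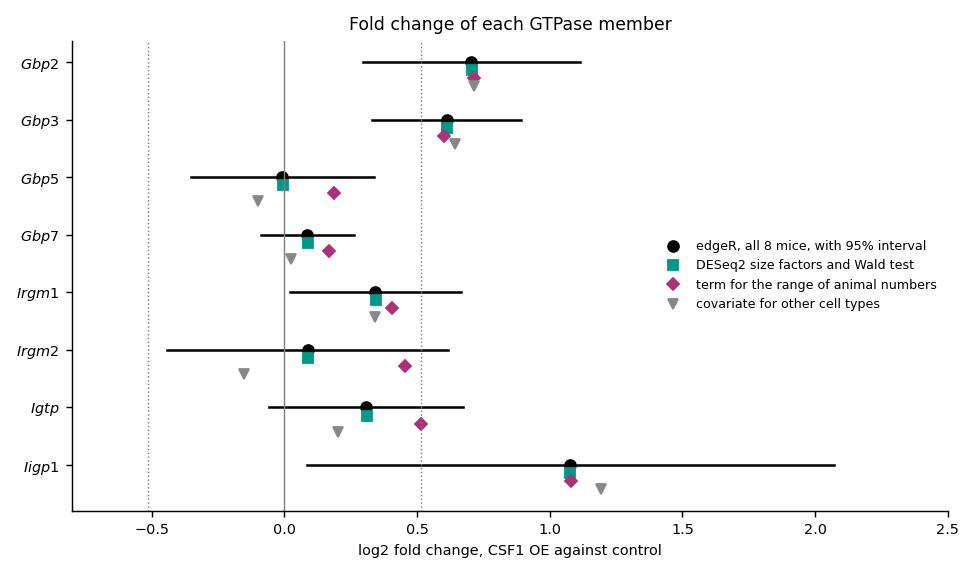
The log2 fold change of CSF1 OE against control (horizontal axis) of each GTPase, as estimated by edgeR from all 8 mice (black circles, lines are 95% intervals) and by 3 alternatives (colored symbols). Dotted lines are the fold thresholds of 0.7 and its inverse. Gbp2 and Gbp3 stay at 0.60 to 0.71 under these fits, whereas Irgm2 moves from -0.15 to 0.45.

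The animal numbers fell into a range from 1931 to 1936, with 1 control and 3 CSF1 OE mice, and other numbers, with 3 control mice and 1 CSF1 OE mouse. The labels give no batch, and this division is used only because it is uneven between the groups. Within both ranges every CSF1 OE mouse was above every control for 7 of the 8 members, all except Gbp5, against 19.8% of all genes tested. Within the range 1931 to 1936 the log2 ratio of the means was 0.89 for Gbp2, 0.78 for Gbp3, 0.61 for Irgm1, 0.61 for Igtp, 0.42 for Irgm2 and 1.92 for Iigp1. Among the other mice it was 0.54 for Gbp2, 0.41 for Gbp3, 0.20 for Irgm1, 0.42 for Igtp, 0.49 for Irgm2 and 0.28 for Iigp1. Each range rests on 1 mouse in 1 of its groups, the controls in the first being mouse 1934 alone and the CSF1 OE mice in the second mouse 2019 alone. With a term for the range in edgeR, Gbp3 was called higher (adjusted p = 0.0361). In that fit 9.50% of all genes were called in either direction and 2.25% higher. In that fit Irgm2 (0.45, adjusted p = 0.0290) and Igtp (0.51, adjusted p = 0.0430) passed the p threshold and not the fold threshold. DESeq2, which called 3.27% of the genes it tested in either direction and 2.07% higher, called Gbp2 (adjusted p = 0.0133) and Gbp3 (adjusted p = 0.000599) higher. With the mean level of 28 markers of endothelial cells, astrocytes, oligodendrocytes, their precursors and neurons as a covariate, edgeR called Gbp3 (adjusted p = 0.0293), where 2.95% of all genes were called.

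The members differed in which mouse was highest. In CSF1 OE mice Gbp2, Gbp3, Irgm1 and Iigp1 were highest in mouse 1936, and Gbp5, Gbp7, Irgm2 and Igtp in mouse 2019. In control mice 7 of the 8 were lowest in mouse 1934, and Gbp3 was lowest in mouse 1872. Among CSF1 OE mice, 18 of the 22 type I interferon targets tested were highest in mouse 1936 and 14 were lowest in mouse 2019. The 4 members highest in mouse 2019 among CSF1 OE mice were those with a GAS in the window. Of these, Gbp5 was highest over all 8 mice in control mouse 1872. Mouse 2019 also had the highest level among CSF1 OE mice of 9 of the 10 microglia markers, as stated above. Mouse 1936, in turn, was highest among CSF1 OE mice for 8 of the 8 endothelial and 5 of the 5 oligodendrocyte markers. Mouse 1936 was lowest among them for 4 of the 10 microglia markers, and mouse 1932 for another 4. The part of the makeup of the cell suspension in these levels was not tested, and in bulk RNA fewer cells of a type and less RNA per cell cannot be told apart.

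**Figure D3:**
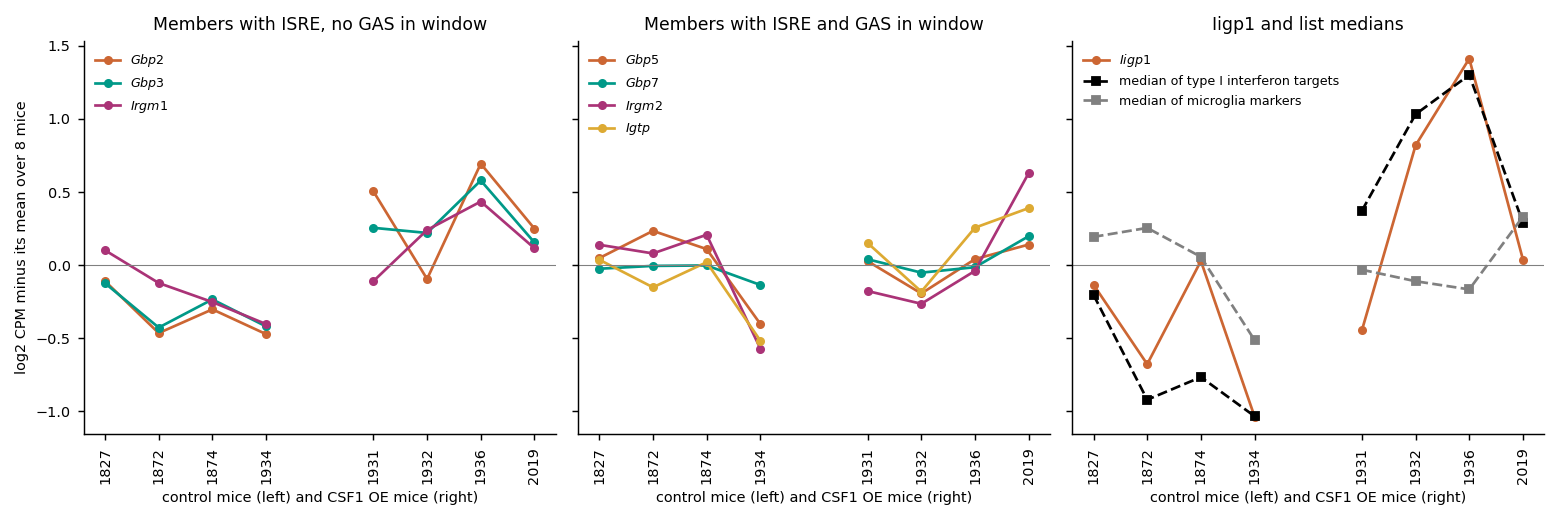
Level of each member in each mouse, as log2 CPM minus its mean over the 8 mice (vertical axis). Lines join the mice of 1 group to make a gene easier to follow and imply no order. Among CSF1 OE mice, members with an ISRE core and no GAS (left) peak in mouse 1936 and those with both motifs (middle) in mouse 2019. Over all 8 mice, Gbp5 (middle) peaks in control mouse 1872. Iigp1 is shown with the medians of 22 type I interferon targets and 10 microglia markers (right).

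By motif, the log2 differences of the members ran from 0.34 to 0.70 for the 3 with an ISRE core and no GAS (median 0.61) and from -0.01 to 0.31 for the 4 with both (median 0.09). This division was noticed after the values were known and rests on 7 genes, of which 4 lie in 1 cluster. It was not found in the other immunity-related GTPases, where Tgtp1 (0.65), Tgtp2 (0.69) and Gm12185 (-0.29) had both motifs and 9930111J21Rik1 (0.31) an ISRE core alone. Over the tested genes with a matched window the median log2 difference was 0.02 both for the 328 genes with an ISRE core alone and for the 55 with both motifs, -0.05 for the 786 with a GAS alone and -0.03 for the 8936 with neither. The groups did not overlap, with CSF1 OE higher, for 14.3%, 9.09%, 5.22% and 6.92% of these genes.

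Levels were compared between genes per kilobase of exon. In control mice Gbp7 was highest, at 18.5 CPM per kb, followed by Igtp (11.1), Irgm1 (8.19), Irgm2 (7.76), Gbp3 (6.99), Gbp2 (4.81), Gbp5 (2.60) and Iigp1 (0.410). The ranges of Igtp and Irgm1, of Irgm1 and Irgm2 and of Irgm2 and Gbp3 overlapped, and those of the other neighbours in this order did not. In CSF1 OE mice Gbp3 was at 10.7 and Gbp2 at 7.83 CPM per kb, against 8.25 for Irgm2. The summed CPM of the 8 members was 257 ± 25.7 in control and 305 ± 26.4 in CSF1 OE mice (SD, n = 4 each), with groups that met at 279 CPM in both. Gbp7 made up 40.5% ± 2.73 of this sum in control and 36.2% ± 2.70 in CSF1 OE mice. The share of Gbp2 was 4.71% ± 0.39 in control and 6.44% ± 1.30 in CSF1 OE mice, with no overlap. Counts of related genes were also summed to 1 feature before the fit, which leaves the sharing of Gbp7 with its pseudogene as it was. The 4 Gbp genes differed by 0.22 (log2, edgeR adjusted p = 0.225) and Irgm1, Irgm2 and Igtp by 0.27 (edgeR adjusted p = 0.377).

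Among the 7 other guanylate-binding proteins, 5 could be tested, of which 4 were higher and 1 lower and none was called by edgeR without a further term. Gbp9 did not overlap between groups, with 50.3 to 56.2 CPM in control and 61.3 to 88.9 CPM in CSF1 OE mice (log2 difference 0.51 ± 0.12, edgeR adjusted p = 0.0870). It was called with the covariate for other cell types (0.57, edgeR adjusted p = 0.0293). Gbp10 had the highest difference (1.11, edgeR adjusted p = 0.202, and 0.0180 with the covariate for other cell types, where it was called), at 38 counts or fewer in a library, and Gbp4 the lowest (-0.17, edgeR adjusted p = 0.790). Gbp2b and Gbp11 were too low to be tested, at 9 and 18 counts at most. Stretches shared with other genes were not measured for these genes, nor for the other immunity-related GTPases. Of 10 other immunity-related GTPases tested, 8 were higher and 2 lower, from -0.29 in Gm12185 to 0.69 in Tgtp2, with none called, none at an unadjusted p under 0.05 by edgeR, and none without overlap. Tgtp2 ran from 0.38 without CSF1 OE mouse 1936 to 0.98 without CSF1 OE mouse 2019.

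All 3 of the very large inducible GTPases and Mx proteins tested were higher. Gm4070, of the very large inducible class, was at 36.2 to 62.4 CPM in control and 69.1 to 130 CPM in CSF1 OE mice (log2 difference 0.93, edgeR adjusted p = 0.0984). Mx2, an antiviral dynamin-like GTPase, had a log2 difference of 0.77 (edgeR adjusted p = 0.191), and Gvin1 of 0.75 (edgeR adjusted p = 0.370). The 10 atlastins, dynamins and mitofusins, GTPases that remodel membranes and are not interferon-inducible as a class, had a median of -0.02, with 5 higher and 5 lower, from Dnm1 (-0.89) to Opa1 (0.09). None of these 13 genes was called by edgeR without a further term. An unadjusted p under 0.05 was found for 3 of them (2 higher, 1 lower), against 16.5% of all genes tested in either direction. Among all the other GTPases, edgeR with the term for animal numbers called 1 higher, Gm4070 (1.23, adjusted p = 0.0249). It called 2 lower, of which 1 was Dnm1 (-1.66, adjusted p = 0.0291). With the covariate for other cell types edgeR called Gm4070 (0.67, adjusted p = 0.0234). The difference of Dnm1 was -0.48 without control mouse 1934, and that of Gvin1 was 1.28 without control mouse 1827 (edgeR adjusted p = 0.0533).

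Upstream of the members, IFN-γ itself (Ifng) had 1 count in 1 of the 8 libraries, a CSF1 OE library. Its receptor chains Ifngr1 (-0.04) and Ifngr2 (0.19) and the kinases Jak1 (0.12) and Jak2 (-0.03) had these log2 differences and overlapped between groups. Ifngr2 was at 0.42 with the term for animal numbers (edgeR adjusted p = 0.0378, under the fold threshold), and at 0.085 without control mouse 1934. Irf1, a transcription factor that IFN-γ induces, overlapped between groups (0.35 ± 0.12, edgeR adjusted p = 0.205), Irf8 had a difference of 0.05 and the inhibitor Socs3 of -0.42. Of the 12 genes of this list that could be tested, 6 were higher and 6 lower, 2 had an unadjusted p under 0.05, against 16.5% of all genes tested in either direction, and 0 were called.

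Other IFN-γ targets went in both directions. Of 15 tested, 8 were higher and 7 lower (median 0.34), 8 had an unadjusted p under 0.05, against 16.5% of all genes in either direction, and 0 were called by edgeR without a further term. Together with the signaling genes, 9 were called with the term for animal numbers (6 higher, 3 lower), against 9.50% of all genes. With the covariate for other cell types 4 were called (2 higher, 2 lower), against 2.95% of all genes. Without control mouse 1827 the count was 4 (2 higher, 2 lower), against 1.21% of all genes. The highest difference was in Cd274, which encodes the checkpoint ligand PD-L1, at 5.90 to 13.1 CPM in control and 15.8 to 34.2 CPM in CSF1 OE mice (1.34 ± 0.30, edgeR adjusted p = 0.0824). The lowest was in the MHC class II gene H2-Eb1, at 6.25 to 25.3 CPM in control and 1.431 to 4.16 CPM in CSF1 OE mice (-2.58 ± 0.55, edgeR adjusted p = 0.0690), beside border macrophage markers of which 7 of 7 were lower and 0 were called. The part of that cell type in this difference was not tested. Ciita, the master regulator of MHC class II genes, did not pass the filter, with 15 counts at most.

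On the type I side, Ifnb1 had at most 8 counts in a library and the 4 Ifna genes 1 count in all. Irf9, the DNA-binding subunit of the complex, had the largest difference among 5 signaling genes tested (0.68 ± 0.15, edgeR adjusted p = 0.0724) and the receptor chain Ifnar1 the lowest (-0.01). All 22 type I interferon targets tested were higher, with a median of 1.83 and a range from Ddx60 (0.43) to Ifi44 (2.63). Isg15, a ubiquitin-like modifier, rose from 3.14 ± 0.92 to 11.3 ± 3.14 CPM (1.85 ± 0.29, edgeR adjusted p = 0.0431) and Ifit1, an RNA-binding antiviral protein, from 1.05 ± 0.15 to 3.80 ± 0.98 CPM (1.85 ± 0.27, edgeR adjusted p = 0.0398). Both calls were lost when control mouse 1872, 1874 or 1934 or CSF1 OE mouse 1931, 1932 or 1936 was left out (edgeR adjusted p between 0.0603 and 0.182), with log2 differences of at least 1.67, and with upper-quartile factors (0.0530 for both). These 2 genes were the only ones called in the interferon lists by edgeR without a further term. The term for animal numbers gave 15 calls among the type I genes and the covariate for other cell types 16. The largest estimate among the GTPase members, 1.08 for Iigp1, lay below the median of the type I interferon targets.

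**Figure D4:**
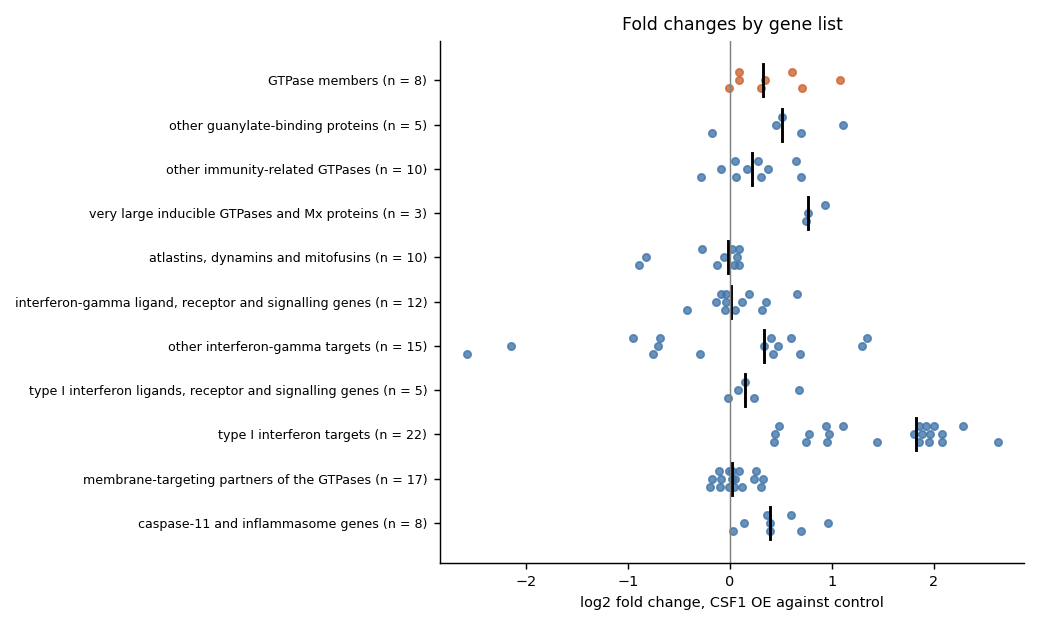
The log2 fold change of CSF1 OE against control (horizontal axis) of every tested gene in the GTPase, interferon and partner lists, 1 point per gene with the number tested in brackets, and black bars at the medians. The GTPases (top, median 0.33) lie mostly between 0 and 1, and the type I interferon targets (median 1.83) extend to 2.63.

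Proteins that bring the GTPases to membranes, such as those of the LC3 conjugation machinery and the prenyl transferases, were also examined. Of 17 genes tested, 10 were higher and 7 lower (median 0.03), from Atg16l1 (-0.20) to Arhgdia (0.33), and 0 were called. Of the caspase-11 and inflammasome genes, which act downstream of guanylate-binding proteins, 8 of 8 were higher (median 0.39). By edgeR without a further term 0 of them were called. Casp4, which encodes caspase-11, was at 9.60 to 13.6 CPM in control and 17.6 to 30.7 CPM in CSF1 OE mice, with no overlap (0.96 ± 0.20, edgeR adjusted p = 0.0634). Casp1 (0.60, edgeR adjusted p = 0.0937) and Aim2 (0.36, edgeR adjusted p = 0.0973) did not overlap either. The groups thus did not overlap for 3 of 8 genes, against 6.84% of all genes tested with CSF1 OE higher. Casp4 was called by DESeq2 (adjusted p = 0.000938) and by edgeR with the term for animal numbers (0.0404) or the covariate for other cell types (0.0306). Casp1 was called by DESeq2 (adjusted p = 0.00843) and by edgeR with the term for animal numbers (0.0249). The smallest difference in the list was in Il18 (0.03).

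The genes most like the members were sought by the root mean square difference between the log2 CPM of a gene, centred over the 8 mice, and the median centred profile of the members. The 5 nearest of all other genes tested were Nipsnap3b (0.0791), Zc3hav1 (0.0819), Vamp8 (0.0860), Vdac2 (0.0903) and Vimp (0.0919), where the median over the other genes was 0.305. Zc3hav1 encodes an antiviral zinc finger protein, Vamp8 a membrane fusion protein and Vdac2 a channel of the outer mitochondrial membrane. The members themselves were at 0.103 (Igtp) to 0.597 (Iigp1) from their median, so that the median profile described Igtp well and Iigp1 poorly. Of the 5 genes, Zc3hav1 alone did not overlap between groups (0.37 ± 0.10, edgeR adjusted p = 0.124).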

How the data were processed

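RNA of CD11b+ cells from 8 mice was measured, grouped by the genotype in the labels. The expected counts per gene symbol were deposited by the authors, made from paired reads with Bowtie 1.0.0 and RSEM 1.2.7 per the submitters' processing notes, which also name bcl2fastq 1.8.4 and build mm10. The strand setting is not given in the sources used here. The authors also deposited a normalized signal, counts divided by a size factor per mouse, used only in the limma alternative. Between 20.8% and 26.5% of the values in a library were not whole, and counts were rounded.

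The fit over all genes used edgeR 4.0.16 under R 4.3.3 (TMM, filterByExpr, glmQLFit, glmQLFTest). The study used EBSeq, which was not available, and its fold thresholds were kept. CPM were scaled by TMM, with a prior count of 2 on the log2 scale. Intervals and floors cover spread between these mice and counting error only. Alternatives were DESeq2 1.42.0, upper-quartile factors, no filter, at least 10 counts in every library, a term for animal numbers, limma 3.58.1 on log2(normalized value + 1), no fold threshold, each mouse left out, counts of related genes summed, CPM of raw totals, and, added after seeing the data, a covariate for other cell types.

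The members and gene lists were chosen with earlier results of these data known. Named genes were the members, the highest and lowest difference and any called gene of each GTPase, interferon and partner list, the IFN-γ signaling genes by role, and the 5 genes most like the members. Tgtp1, 9930111J21Rik1, Gbp9, Mx2, Ciita, Ifnb1, Casp1 and Aim2 were named after their values were seen. Marker lists of cell types are given as summed levels, and 1 gene that the rule names is not reported here. The mice carry no shared replicate number, so none were paired.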

Additional observations from a re-analysis of the deposited data

How the results depend on the processing

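No member was called under upper-quartile factors, either filter, limma, no fold threshold or with any mouse left out, and DESeq2 called 2 members, the term for animal numbers 1 and the covariate for other cell types 1. Over all genes the 59 calls (52 higher, 7 lower) became 424 with DESeq2 (268 higher), 19 with upper-quartile factors, 104 with limma, 1273 with the term for animal numbers (302 higher), 395 with the covariate (201 higher) and between 3 and 164 with 1 mouse left out (164 without control mouse 1827). Of the other GTPases, 0 became 1 with DESeq2, 3 with the term (1 higher, 2 lower) and 3 with the covariate. Of the IFN-γ genes, 0 became 7, 9 and 4, and between 0 and 4 with 1 mouse left out (4 without control mouse 1827). The 2 type I genes became 17, 15 and 16, 0 with upper-quartile factors, 10 with limma and between 0 and 9 with 1 mouse left out. Of the partner and inflammasome genes, 0 became 2, 2 and 1. The causes were not tested.

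The sign changed for Gbp5 with limma (0.0075) and the term (0.19), for Ifnar1 (0.014) and Ifngr1 (0.29) with the term, and for Irf8 (-0.042) and Irgm2 (-0.15) with the covariate. With 1 mouse left out, log2 differences ran from -0.11 to 0.076 for Gbp5, -0.15 to 0.19 for Irgm2, -0.37 to 0.012 for Gbp4, -0.041 to 0.034 for Ifnar1, -0.18 to 0.062 for Ifngr1, -0.045 to 0.18 for Irf8 and -0.069 to 0.016 for Jak2. They stayed above 0 for the other 6 members, from 0.52 to 0.68 for Gbp3 and 0.67 to 1.31 for Iigp1. Scaled by raw totals, the members summed to 261 ± 12.4 CPM in controls against 299 ± 28.0 CPM with CSF1 OE, without overlap. No paired analysis was possible because the groups compared share no replicate numbers.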
